A study of Mus musculus with 2 samples.

Results

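Mir322, Mir503, Mir351, Mir542 and Mir450b are 5 microRNA (miRNA) genes that lie side by side on mouse chromosome X and are known as part of the H19X cluster. The rule that picks them uses their symbols and no measured value, and all 5 were found among the 1973 miRNA genes counted. Short RNAs were sequenced from the bladders of B6NCrl mice at postnatal day 0, with 2 libraries, each made from total RNA of 1 bladder of 1 pup of the same pregnancy. The libraries are called pup 2 and pup 1 here after the pup numbers in the labels, which say that sex was not recorded. There was 1 group, with no treatment, mutant or second age. The data thus describe levels in a newborn bladder and the spread between littermates, and they cannot show whether the cluster changes with growth. Each pup had 1 library, so a difference between the animals cannot be told apart from a difference in library preparation or sequencing. The levels are counts on the annotated (sense) strand per 1000000 sense-strand gene counts (CPM).

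MiRNAs are short RNAs cut from hairpin precursors; they pair with messenger RNAs mainly through a seed at their 5′ end and lower the output of those messengers. Genes of a miRNA cluster are often cut from 1 long primary transcript, while each hairpin is processed on its own, so mature levels from 1 transcript can differ. The cluster of Mir322, whose human counterpart is MIR424, is known from placenta, embryonic tissues and differentiating muscle. Mir322 and Mir503 belong to the extended miR-15/16 family, which is known to restrain cell cycle genes such as cyclins and Cdc25a.

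The mature sequences show how the members are related, and the seed (bases 2 to 8) is in capitals. Sequences are from RefSeq on GRCm38.p6, and all 5 members matched. The first set joins Mir322 and Mir503 to miRNAs of the miR-15/16 family.
mmu-miR-322-5p: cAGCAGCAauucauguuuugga
mmu-miR-503-5p: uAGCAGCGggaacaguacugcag
mmu-miR-15a-5p: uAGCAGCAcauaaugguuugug
mmu-miR-16-5p: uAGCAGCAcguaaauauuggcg
mmu-miR-195a-5p: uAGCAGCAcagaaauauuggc
The seed AGCAGCA of miR-322-5p is that of miR-15a-5p, miR-16-5p and miR-195a-5p. The seed of miR-503-5p is AGCAGCG, and no other miRNA in the table had all of its bases. Compared position by position without gaps, miR-322-5p matched miR-15a-5p at 15 of 22 bases and miR-503-5p at 11 of 22.

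The second set places Mir351 beside the miR-125 family, which is known from developing tissues and blood.
mmu-miR-351-5p: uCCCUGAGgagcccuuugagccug
mmu-miR-125a-5p: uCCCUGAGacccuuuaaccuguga
mmu-miR-125b-5p: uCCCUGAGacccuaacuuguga
Here the seed CCCUGAG was the same throughout. Compared position by position without gaps, seed included, miR-351-5p and miR-125a-5p had 10 identical bases of 24. Stretches shared at shifted positions, such as cccuuu after the seed, do not count in this comparison.

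The third set holds both arms of Mir542 and the miR-450 sequences, whose likeness bears on how their reads can be counted.
mmu-miR-542-5p: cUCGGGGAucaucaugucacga
mmu-miR-542-3p: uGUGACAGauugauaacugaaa
mmu-miR-450b-5p: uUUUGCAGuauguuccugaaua
mmu-miR-450a-5p: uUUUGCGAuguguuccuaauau
mmu-miR-450b-3p: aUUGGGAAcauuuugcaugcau
mmu-miR-450a-1-3p: aUUGGGAAcauuuugcauaaau
mmu-miR-450a-2-3p: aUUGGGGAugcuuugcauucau
The 3p miRNA of Mir450b shared its seed UUGGGAA with that of Mir450-1 and matched it at 20 of 22 bases, including a run of 18. The 5p miRNA of Mir450b matched miR-450a-5p at 15 of 22 bases and had a seed of its own. The seed GUGACAG of miR-542-3p, a miRNA known to act on the survivin gene in human cells, was found in no other mature sequence of the table. The counts are per gene, so they do not say which arm of a hairpin was present.

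On the GRCm38 assembly, which mm10 names, the members lie within 6353 bases of the minus strand of chromosome X (53047997 to 53054349). In the direction of transcription Mir322 (ENSMUSG00000065418.1, 53054255 to 53054349) came first, Mir503 (ENSMUSG00000076122.1, 53053984 to 53054054) followed after a gap of 200 bases, and Mir351 (ENSMUSG00000065503.1, 53053255 to 53053353) after a further 630. A gap of 3767 bases, which holds the long non-coding gene Gm28730, separates these from Mir542 (ENSMUSG00000076140.1, 53049403 to 53049487). Mir450b (ENSMUSG00000076050.1, 53047997 to 53048078) is last, behind Mir450-2 and Mir450-1. In GENCODE M21 no other gene overlaps any of these 7 miRNA genes. The non-coding gene C430049B03Rik lies 697 bases upstream of Mir322 on the same strand, and the protein-coding genes Plac1 and Hprt flank the cluster at 15646 and 26338 bases. The hairpin of Mir322, the most abundant member, is printed with its 5p and 3p miRNAs in capitals.
Mir322 hairpin: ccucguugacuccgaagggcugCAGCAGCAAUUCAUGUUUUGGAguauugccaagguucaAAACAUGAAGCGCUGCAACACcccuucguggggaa

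Pup 2 had 3636650 sense-strand gene counts and pup 1 had 7460621, so the deeper library carries the smaller counting error. Intervals given here are exact 95% binomial (Clopper-Pearson) intervals and reflect only the error of counting, as PCR copies of a molecule cannot be recognised. Smooth muscle miRNAs (Mir143 and Mir145a) held 53.5% of counts in pup 2 and 53.8% in pup 1, and 7 of 7 epithelial miRNAs were detected, at 1.63% and 1.67%. The 5 measured Mir124a and Mir9 genes of neurons were at 0 in both, although reads of such near-identical copies can be missing. In whole tissue, more cells that express a miRNA and more miRNA per cell cannot be told apart.

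The 5 members together held 3.45% of all sense-strand counts in pup 2 (interval 3.43% to 3.47%) and 3.57% in pup 1 (3.56% to 3.59%), a mean of 3.51% ± 0.0894 (SD, n = 2). All 5 were detected in both pups, which asked for at least 1 CPM and 3 counts, as were 335 of the 1973 genes. Most of the sum was Mir322.

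Mir322 had 99858 counts in pup 2 and 205485 in pup 1, or 27459 and 27543 CPM. Its mean of 27500.7 ± 59.3 CPM (SD, n = 2) ranked 5 among all genes, and it ranked 5 in each pup. Ranks given here are over reads assigned to a gene. Reads with several mapping places were left out, so genes with near-identical copies can rank too low. The counting intervals, 27291 to 27627 CPM in pup 2 and 27425 to 27660 CPM in pup 1, overlapped, so the levels of this gene were not distinguishable between the pups on this scale. Mir143, the smooth muscle miRNA at the top of the profile, was 19.1-fold higher in both pups.

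Mir503, the other member of the miR-15/16 type, lies 200 bases from Mir322 but stood far below it. It had 2955 counts in pup 2 and 6790 in pup 1, or 813 and 910.1 CPM. The mean was 861 ± 69.0 CPM, at rank 74. Mir322 was 33.8-fold above Mir503 in pup 2 and 30.3-fold in pup 1, so the difference between these neighbours was large beside the spread between the pups.

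Mir351, the member with the miR-125 seed, was the second most abundant, with 17083 counts in pup 2 and 43146 in pup 1. Its level was 4697 CPM in pup 2, against 5783 CPM in pup 1, with a mean of 5240.3 ± 768 CPM at rank 22. It had the largest relative spread of the members, with an SD of 14.7% of its mean against 0.216% for Mir322.

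Mir542 had 4350 counts in pup 2 and 8815 in pup 1, or 1196 and 1182 CPM. The mean of this gene was 1189 ± 10.3 CPM, at rank 63. Mir450b, the last gene of the cluster, was the lowest member. It had 1157 counts in pup 2 and 2458 in pup 1, or 318 and 329 CPM, with a mean of 324 ± 8.0 CPM at rank 111. The SD of both genes was under 3% of the mean (0.870% for Mir542 and 2.47% for Mir450b).

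The order of levels was thus Mir322, Mir351, Mir542, Mir503 and Mir450b, and it was the same in both pups. Mir322 was 5.30 ± 0.766-fold above Mir351 (SD, n = 2), and Mir351 was 4.41 ± 0.684-fold above Mir542. The narrowest step was that of Mir542 over Mir503, at 1.47-fold in pup 2 and 1.30-fold in pup 1. Mir503 was 2.66 ± 0.147-fold above Mir450b. No 2 members next to each other in this order overlapped in their CPM across the pups. With 2 values against 2 an exact permutation test cannot go below p = 0.333, so none was run. These folds are between genes of 1 library and so do not depend on how the libraries are scaled, but the capture of different miRNAs in a library can differ and was not measured.

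**Figure D1:**
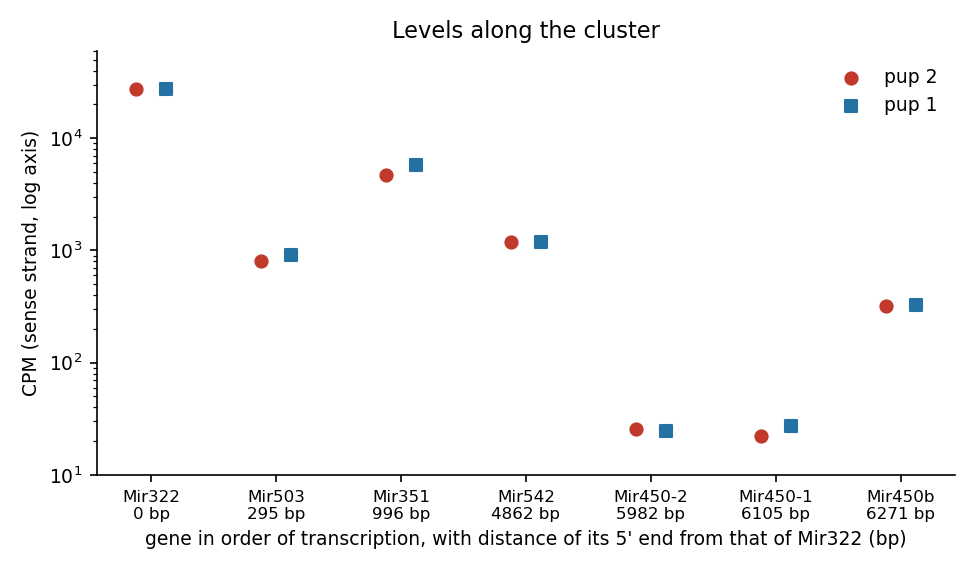
Each point is the sense-strand CPM (log axis) of 1 gene in 1 pup, for the 7 miRNA genes in order along the minus strand, with the distance of each 5′ end from that of Mir322 in bases. Levels fall and rise along the cluster, between 27459 and 27543 CPM at Mir322 and between 22.3 and 27.1 CPM at Mir450-1, and the pups lie close together at every gene.

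Level did not follow place in the cluster. The first 3 genes (Mir322, Mir503 and Mir351) summed to 32969 CPM in pup 2, against 34236 CPM in pup 1. The last 4 (Mir542, Mir450-2, Mir450-1 and Mir450b) came to 1562.2 CPM in pup 2, against 1562.7 CPM in pup 1. Within the first 3 the middle gene was the lowest, and within the last 4 the outer genes were the highest. The hairpins of Mir322, Mir503, Mir351 and Mir542 had a GC content between 50.5% and 54.9%, while the hairpin of Mir450b had 30.5%.

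Mir450-2 and Mir450-1, which are not among the 5 members but lie between Mir542 and Mir450b, had low counts. Mir450-2 had 93 counts in pup 2 and 184 in pup 1 (25.6 and 24.7 CPM), and Mir450-1 had 81 and 202 (22.3 and 27.1 CPM). The ranges of the pair overlapped, so their order cannot be told. Mir450b stood 12.9 ± 0.649-fold above Mir450-2. The level of the pair is uncertain, because both hairpins hold a stretch of 25 identical bases, in capitals here, that includes the whole of miR-450a-5p.
Mir450-2 hairpin: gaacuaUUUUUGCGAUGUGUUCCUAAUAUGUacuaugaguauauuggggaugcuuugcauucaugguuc
Mir450-1 hairpin: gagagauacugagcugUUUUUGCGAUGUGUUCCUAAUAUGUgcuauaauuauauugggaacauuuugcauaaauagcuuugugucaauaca
Reads with several mapping places, 24.8% of the reads of pup 2 and 22.7% of those of pup 1, were listed separately and assigned to no gene. A read of miR-450a-5p matches both hairpins, so it can be missing from both genes, and how many were missing was not measured. The members themselves are less exposed to this: none of the 5 shared a stretch of 20 bases with another annotated miRNA gene, and each of their mature sequences had an exact match in no GENCODE M21 transcript of another gene. Mir450b did share a run of 19 bases with Mir450-1, just under that length, so some of its reads can be missing too. The genome sequence itself was not searched.

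No member had a count on the opposite strand in either pup. The limits given here take 3 counts of a gene's total as the most that a count of 0 allows. For Mir322, 0 of 99858 counts in pup 2 allows a share of up to 0.00300%, and 0 of 205485 in pup 1 up to 0.00146%. For Mir450b, the member with the fewest counts, the limits were 0.259% in pup 2 and 0.122% in pup 1.

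Counts alone give the share of each member in the cluster. Mir322 held 79.5% of the counts of the 7 genes in pup 2 and 76.9% in pup 1, and Mir351 held 13.6% and 16.2%. The shares of Mir542 were 3.46% and 3.30% and those of Mir503 were 2.35% and 2.54%, in pups 2 and 1. Mir450b held 0.921% in pup 2 and 0.920% in pup 1. Mir322 thus took a larger part of the cluster in pup 2 and Mir351 a smaller part, while the share of Mir450b was nearly the same.

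The cluster dominated the miRNA counts of chromosome X. Of the sense-strand counts on its 120 measured genes, the 5 members held 74.1% in pup 2 and 76.3% in pup 1. Mir322 alone held 59.0% and 58.8%. Of the 120 genes, 38 were detected in both pups and 67 had no count in either. Among the 113 genes of chromosome X outside the cluster, the highest was Mir98, of the let-7 family, at 2894 CPM in pup 2, against 3082 CPM in pup 1. Mir652 followed at 2290.0 and 2209.9 CPM and Mirlet7f-2 at 1719 and 1597 CPM. The last of these is uncertain, since the let-7 genes share sequence among themselves.

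Other genomic clusters give a scale for these levels. Measured miRNA genes on 1 strand with at most 10 kb between neighbours formed 25 clusters of at least 3 genes, and the cluster of Mir322 had the highest summed CPM of them, 35165 CPM as the mean of both pups. The next were the clusters led by Mir411 at 20012 CPM and by Mir23a at 19277 CPM. The pair of Mir143 and Mir145a has too few genes to be in this set. With a limit of 50 kb between neighbours the cluster led by Mir99a, at 41254 CPM, was above that of Mir322. Every gene was detected in 7 of the 25 clusters, and among these the ratio of the highest to the lowest gene was 1115 in the cluster of Mir322, against a median of 14.2 and a range of 3.34 to 1296. That ratio rests on Mir450-1. Among genes with no shared stretch of 20 bases, the ratio in the cluster of Mir322 was 84.9, and 1 of the 7 clusters of such genes with every gene detected was higher. These values describe 2 libraries, and reads of several places can be missing from any cluster.

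**Figure D2:**
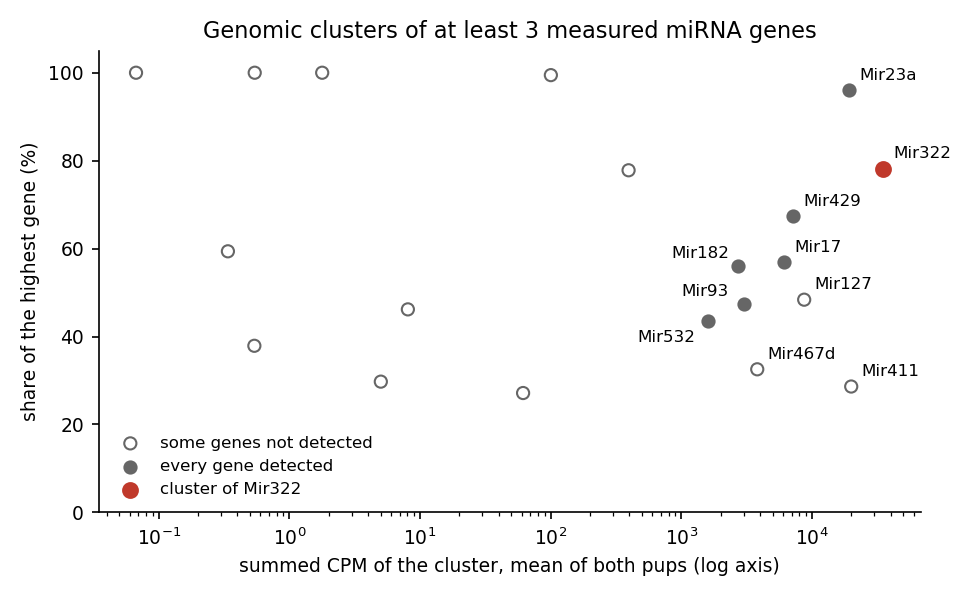
Each point is 1 genomic cluster, with its summed CPM as the mean of both pups (log axis) against the share of its highest gene in percent. Of 25 clusters, 20 with a count above 0 are drawn and those above 1000 CPM carry the name of their highest gene; filled points had every gene detected. The cluster of Mir322 lies farthest to the right, with 78.2% of its sum in Mir322.

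Relatives by seed were measured beside the members. Mir322 was the most abundant measured gene with the seed AGCAGCA. In pups 2 and 1, Mir15a had 2681 and 2240.3 CPM, Mir16-1 had 2180.0 and 1604 CPM, and Mir195a had 1815 and 1782 CPM. Mir15b was at 993 and 924 CPM, and Mir16-2 at 456 and 362 CPM. These genes, with Mir195b at 0 and Mir497b at 2 counts in pup 2 and 0 in pup 1, formed a list of 7 measured genes. Mir322 was 3.38-fold above their sum in pup 2 and 3.98-fold in pup 1. Mir16-1 and Mir16-2 make the same mature miRNA, so reads of miR-16-5p can be missing and the fold over the sum is uncertain. Whether Mir322 stands above miR-16-5p therefore cannot be told. Against Mir15a, which shares no stretch of 20 bases with another gene, Mir322 was 10.2-fold higher in pup 2 and 12.3-fold in pup 1. The miRNA miR-497a-5p has the same seed and lies on the strand opposite Mir497b. Counts on that opposite strand were 4128 in pup 2 and 8412 in pup 1, equal to 1135 and 1128 CPM, and they are not in the sum.

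Mir351 likewise had the highest CPM of the measured genes with the seed CCCUGAG. Mir125a had 1652 CPM in pup 2 and 1777 CPM in pup 1, and its range did not overlap that of Mir351. Mir125b-2 had 467 CPM in pup 2 and 414 CPM in pup 1, and Mir125b-1 had 244 and 221 CPM. Mir351 was 2.84-fold above Mir125a in pup 2 and 3.25-fold in pup 1. The levels of Mir125b-1 and Mir125b-2 are uncertain, because they make the same mature miRNA. Reads of miR-125b-5p can be missing from both genes, so whether Mir351 stands above that miRNA cannot be told. The high-numbered miRNAs with these seeds, Mir6342, Mir6353 and Mir6419 for AGCAGCA and Mir6367 and Mir6394 for CCCUGAG, had no count in either pup.

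**Figure D3:**
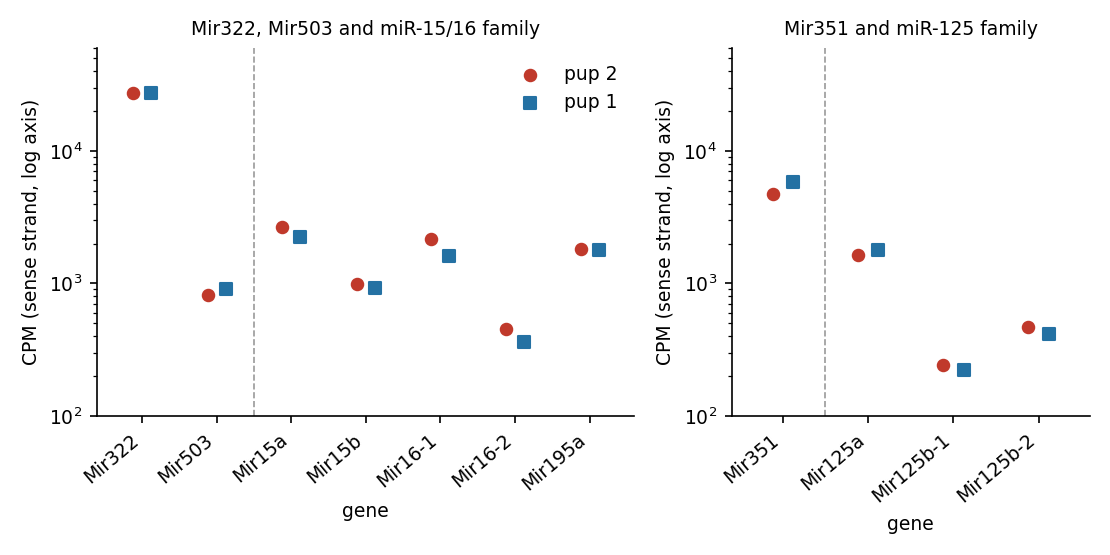
Each point is the sense-strand CPM (log axis) of 1 gene in 1 pup, with members left of the dashed line and detected genes of the miR-15/16 and miR-125 lists right of it. Mir322, near 27500.7 CPM, stands above every gene of its list, Mir503 lies among them, and Mir351 stands above the miR-125 genes.

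The genes nearest to each member in level, by mean CPM over both pups, were the next above and below in the order of all genes. Mir322 lay between Mirlet7g at 30261 CPM in pup 2 and 29396 in pup 1 and Mirlet7i at 20940 and 24060 CPM, with no overlap with either. Mir351 lay between Mir10a, a miRNA of the Hox gene clusters, at 5976 and 5326 CPM in pups 2 and 1, and the epithelial Mir429 at 4761 and 4874 CPM, and its range overlapped both. Mir542 lay between Mir381 and Mir324 and overlapped Mir381 only. Mir503 lay between the hypoxia-regulated Mir210 and the myeloid Mir223 and overlapped both. Mir223 had 1274 CPM in pup 2 and 396 CPM in pup 1, so it overlapped only by its wide range. It was close to Mir503 in neither pup. Mir450b lay between Mir320 and Mir181a-1 and overlapped Mir181a-1 only.

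The littermates were compared gene by gene, as a measure of the spread behind these levels and not of a condition. A two-sided exact binomial test on the counts, with library sizes scaled by the trimmed mean of M values (TMM) in edgeR and Benjamini-Hochberg adjustment over the 362 genes with at least 10 counts in both pups together, sets the difference between the 2 libraries against read counting alone. By this test 32.3% of the tested genes differed between the libraries at an adjusted p under 0.05, and 3 of the 5 members did. The share called rises with depth, and it was 46.8% of genes with at least 100 counts, as all members have. No statement about the cluster rests on the count of 3.

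Mir351 was lower in pup 2 than in pup 1, with a log2 ratio of -0.28 and a counting SE of 0.013 (adjusted p = 2.39e-100 by the exact binomial test). It was 0.826-fold its level in pup 1, and 121 of the 362 tested genes had a larger absolute ratio. Mir503 was also lower in pup 2, with a log2 ratio of -0.14 and a counting SE of 0.032 (adjusted p = 5.69e-05 by the same exact test). Lower calls in pup 2 made up 13.3% of the tested genes and higher calls 19.1%.

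Mir322 passed the test as higher in pup 2 by a log2 ratio of 0.019 (adjusted p = 0.00214 by the exact test), a difference of 1.01-fold whose direction depended on the scaling. Scaled by total counts, as in the CPM given here, its ratio was -0.0044 and not past the threshold, and with DESeq2 size factors it was -0.014 and past it. No direction can be given for Mir322. Mir542 and Mir450b had log2 ratios of 0.042 and -0.027 and did not pass, with adjusted p of 0.257 and 0.802 by the exact test.

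The test counts reads of 1 library on each side and has no replicate on either side. The spread between the pups over all tested genes gave what edgeR calls a biological coefficient of variation, of 13.2%. It also holds any difference between the libraries that did not come from the animals. With that common spread in edgeR's exact test, 0 of the 5 members passed at an adjusted p under 0.05, against 1.38% of all tested genes, and the unadjusted p of the members lay between 0.308 and 0.942. That spread was taken from the same difference between the 2 libraries that was then tested. A gene with a ratio typical of the tested genes can hardly pass, so this test cannot decide whether Mir351 or Mir503 differed. By ratio alone, 33.4% of the tested genes had a larger absolute log2 ratio than Mir351, and 56.6% a larger one than Mir503.

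**Figure D4:**
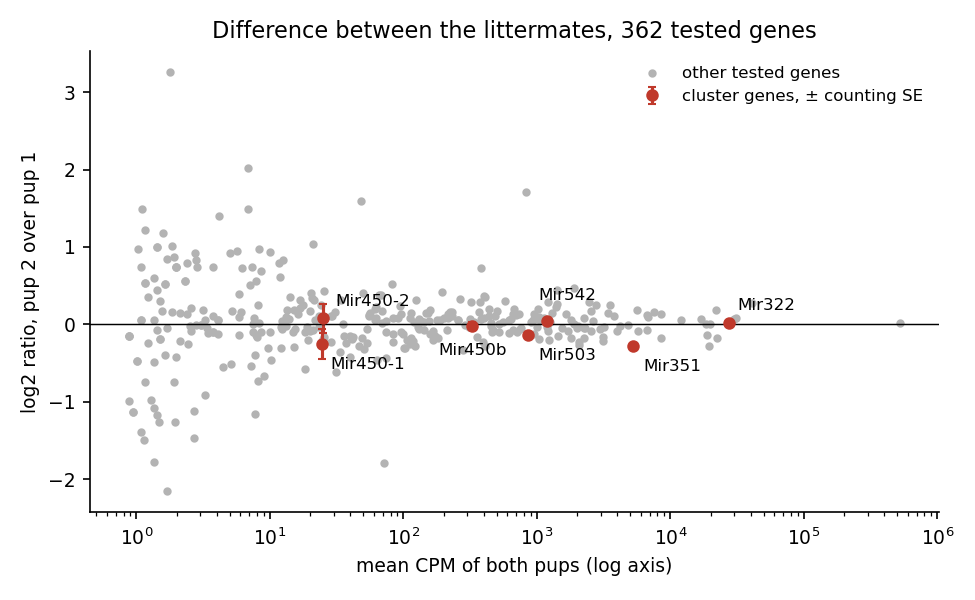
Each point is 1 of the 362 tested genes, with its mean CPM over both pups (log axis) against the log2 ratio of pup 2 over pup 1; bars on the red cluster genes are the counting SE. Mir322, Mir542 and Mir450b lie near 0, Mir503 at -0.14 and Mir351 at -0.28, inside the band of other genes.

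Ratios between members differed between the pups more for some pairs than for others, which was not tested. Mir322 over Mir351 was 5.85 in pup 2 and 4.76 in pup 1, and Mir322 over Mir503 was 33.8 and 30.3, while Mir322 over Mir542 was 23.0 in pup 2 and 23.3 in pup 1. Mir322 over Mir450b was 86.3 in pup 2 and 83.6 in pup 1. These are ratios within a library and hold under any scaling. The seed relatives are given beside them, against the 32.3% of all tested genes and 46.8% of those with at least 100 counts that the exact binomial test called. In the miR-15/16 list, Mir15a, Mir15b, Mir16-1 and Mir16-2 passed the exact binomial test as higher in pup 2. Of the 5 tested genes no gene passed as lower, and their median log2 ratio was 0.28 against 0.034 over all tested genes. Mir15a lies beside Mir16-1 on chromosome 14 and Mir15b beside Mir16-2 on chromosome 3, so these genes are not independent of each other. In the miR-125 list 2 of 3 genes passed as higher and 1, Mir125a with a log2 ratio of -0.082, as lower in pup 2. With the common spread in edgeR's exact test no gene of either list passed. This decides nothing for the lists, as that spread was taken from the same pup difference that was tested. The red cell miRNAs Mir144 and Mir451a together had 923 CPM in pup 2, against 645 CPM in pup 1. The myeloid Mir223 had 1274 CPM in pup 2, against 396 CPM in pup 1. In the other direction, the liver miRNA Mir122 had 31.6 CPM in pup 2, against 112 CPM in pup 1. Measured miRNA genes of skeletal and cardiac muscle summed to 60.2 CPM in pup 2, against 85.4 CPM in pup 1. Their part in the differences of the members was not tested.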

How the data were processed

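Short RNA of 2 newborn mouse bladders was sequenced, 1 library per pup. The authors deposited whole-number counts per miRNA gene for each library, not normalized and not pooled, from reads aligned to mm10 with genes of GENCODE M4, per the labels and the text deposited with the tables. For the aligner, counter and filters, no source used here gives a name. Columns are unlabelled. Since the first column of counts was the other columns added up for every gene, it was read as both strands, and the second, which holds nearly all counts, as sense. Totals of unassigned reads stayed out of library sizes; reads mapped to several places were 24.8% in pup 2 and 22.7% in pup 1.

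Symbols and positions came from GENCODE M21 (1894 of 1973 genes matched). CPM, shares and ratios were computed from sense counts, with SD over the 2 pups. The pups were compared by an exact binomial test (scipy 1.17.1) with TMM library sizes from edgeR 4.0.16 (R 4.3.3) and Benjamini-Hochberg adjustment; ratios divide pup 2 by pup 1 after adding a prior count of 0.5. The test was checked on simulated counts that held read counting noise alone, so that check does not cover spread between animals. A model across replicates could not be fitted, with 1 library on each side. DESeq2 1.42.0 gave alternative size factors. Named genes were the members, the other genes of the genomic cluster, seed relatives, the nearest genes in level and the 3 highest others on chromosome X; genes that lead other clusters, flanking genes and marker genes are named as context. Members and lists were chosen with earlier results of these data known.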

Additional observations from a re-analysis of the deposited data

How the results depend on the processing

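The share of the 5 members, 3.51% of sense counts, was 3.45% to 3.57% when either pup was left out, 3.40% in counts of both strands, 2.30% of all reads and 7.39% with Mir143 left out of the totals, so levels depend on the denominator; with all 7 genes of the cluster it was 3.52%. The levels of the 5 members moved by more than 1 SD under the totals of all reads and without Mir143. The order of the members was the same in each pup. Counts of both strands had to give the same order, since no member had a count on the opposite strand. The share of Mir322 in its cluster lay between 76.9% and 79.5% when either pup was left out. In pup 2 alone 1 cluster had a higher ratio of highest to lowest gene than that of Mir322, and in pup 1 alone no fully detected cluster had. The 117 genes that differed between the pups by the exact binomial test, 32.3% of those tested, were 33.6% to 34.5% under other scalings and both strands, 46.8% with at least 100 counts and 15.6% with no filter, and 5 genes by edgeR's exact test with the common dispersion, which allows for spread beyond read counting. The split was 69 higher and 48 lower in pup 2 with TMM, 56 and 69 with DESeq2 size factors and 59 and 64 with total counts. The log2 ratio of Mir322 reversed, at -0.0044 with total counts and -0.014 with DESeq2 size factors; Mir322 did not pass in counts of both strands (adjusted p = 0.170 by the exact test). Mir351 and Mir503 stayed past the threshold in all but edgeR's exact test, whose spread came from the same pup difference that it tested. No paired analysis was possible because there is 1 group.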
